A study of Mus musculus with 10 samples.

Results

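The mitosis and G2/M genes are the genes whose products take a cell from the end of DNA replication through chromosome segregation to division. A list of 39 such genes was read on 10 microarrays of cultured mouse lung fibroblasts, and 38 of them had a probe set that the platform table assigns to that gene alone. The table used here assigns no such probe set to Ccnb1, the cyclin B1 gene, so no value is given for it. Where a gene had several probe sets, the one with the highest mean over the 10 arrays stood for it, which made the 38 genes part of a table of 18193 genes. The arrays hold RNA from 5 samples of normal lung fibroblasts and 5 samples of carcinoma-associated fibroblasts (CAF), the fibroblasts of a tumour's stroma. The cells of both groups came out of mouse lungs and were grown in culture, in DMEM medium with 10% serum, for 10 to 14 days before they were put on 10 cm dishes for a last night. The submitters call the samples of a group biological replicates. Strain, age, sex, genotype and the tumour model are not given in the sources used here, nor is the way the fibroblasts were separated from other lung cells. Sample names in the labels begin with "vs" for normal arrays 1 to 3 and with "ls" for normal arrays 4 and 5 and all 5 CAF arrays. The labels do not say what these prefixes mean.

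In dividing cells, transcription of these genes is low in G1 and peaks in G2 and mitosis. The DREAM repressor complex holds them down in resting cells through a promoter element, the cell cycle genes homology region (CHR), and in G2 the MuvB core of that complex, joined by B-Myb and then FOXM1, activates them through the same element. Many of these promoters also hold CCAAT boxes, which bind the factor NF-Y. In a population of cells, the level of such a gene therefore follows the share of cells that are cycling as well as the amount of RNA in each of them, and an array of bulk RNA cannot tell these apart.

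The promoters of 33 of the 39 genes could be matched by symbol in the RefSeq promoter table of build GRCm38.p6, which holds 250 bases before and 50 bases after each start. Those of the pair with the closest covariation over the arrays among genes holding both elements are printed to show the elements, together with 1 promoter that holds neither. Capitals mark each CHR, searched as TTTGAA or TTTAAA, and each CCAAT, all searched on both strands, so that a CCAAT on the other strand reads ATTGG. Cdca3, which encodes a factor that triggers mitotic entry, lies at chr6:124829926-124830225 on the plus strand and Plk1, the gene of Polo-like kinase 1, at chr7:122159185-122159484 on the plus strand. Nuf2, a subunit of the kinetochore's NDC80 complex, lies at chr1:169531415-169531714 on the minus strand.
Cdca3: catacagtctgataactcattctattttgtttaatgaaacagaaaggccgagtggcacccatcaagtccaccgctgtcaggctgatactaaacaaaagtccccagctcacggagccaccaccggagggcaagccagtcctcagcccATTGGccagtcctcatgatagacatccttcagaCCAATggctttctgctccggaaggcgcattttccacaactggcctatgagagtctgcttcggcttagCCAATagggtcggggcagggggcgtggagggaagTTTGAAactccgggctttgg
Plk1: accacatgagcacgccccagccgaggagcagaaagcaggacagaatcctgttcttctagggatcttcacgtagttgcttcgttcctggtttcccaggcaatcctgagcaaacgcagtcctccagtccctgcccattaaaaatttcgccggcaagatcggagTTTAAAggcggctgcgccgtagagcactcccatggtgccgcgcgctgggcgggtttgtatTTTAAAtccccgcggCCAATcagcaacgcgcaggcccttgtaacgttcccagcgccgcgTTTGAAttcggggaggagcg
Nuf2: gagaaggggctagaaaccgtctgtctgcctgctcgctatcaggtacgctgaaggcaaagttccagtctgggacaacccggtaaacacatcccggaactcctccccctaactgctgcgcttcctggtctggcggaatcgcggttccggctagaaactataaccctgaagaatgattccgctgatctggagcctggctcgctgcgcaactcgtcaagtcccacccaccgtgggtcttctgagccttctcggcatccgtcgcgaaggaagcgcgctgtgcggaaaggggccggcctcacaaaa

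The Cdca3 promoter held 1 CHR, with its first base at position 31 from the start, and 3 CCAAT boxes. The Plk1 promoter held 3 CHR matches, the nearest at position -29, and 1 CCAAT box at position -14. Nuf2, Nusap1 and Mad2l1 held neither element in this window, which says only that these letters were not found there. The next 5 windows show the nearest CHR, in capitals, of 5 of the other members with close covariation, with 20 bases on each side. They lie at chr4:118437336-118437381 (Cdc20, minus strand), chr10:69352902-69352947 (Cdk1, minus strand), chr9:61946772-61946817 (Kif23, minus strand), chr7:80294426-80294471 (Prc1, plus strand) and chr4:117178850-117178895 (Kif2c, minus strand). The Kif2c match is on the other strand, where it reads TTCAAA, and its first base is at position -103. Aurka, whose r of 0.994 lies above the 0.993 of Kif2c, held a CHR at position 18 and is not printed.
Cdc20: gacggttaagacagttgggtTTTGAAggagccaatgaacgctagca
Cdk1: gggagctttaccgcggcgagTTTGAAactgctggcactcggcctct
Kif23: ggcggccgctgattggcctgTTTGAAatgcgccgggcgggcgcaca
Prc1: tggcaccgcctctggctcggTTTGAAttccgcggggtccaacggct
Kif2c: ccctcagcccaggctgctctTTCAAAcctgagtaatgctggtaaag

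A CHR was found in 28 of the 33 genes and a CCAAT box in 26, with 24 genes holding both, 4 a CHR only, 2 a CCAAT box only and 3 neither. Counted by promoter, 85.7% of the 35 promoters of these genes held a CHR, against 27.6% of the 32851 promoters in the table. For CCAAT the shares were 80.0% and 37.4%. The TTTGAA form accounted for most of the matches, at 77.1% of the members' promoters against 17.9% of all, and TTTAAA was present in 25.7% against 13.2%. Within 50 bases of the start on either side, a CHR lay in 77.1% of the members' promoters and in 8.28% of all, and a CCAAT box in 57.1% and 13.6%. The member genes are partly known for these elements, so the shares describe the list and are not a test of it.

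The levels of the member genes spread widely among arrays of the same group, and this spread was larger than the difference between the group means. Averaged over the 38 genes, log2 expression was 8.74, 7.84, 11.28, 11.17 and 11.07 on normal arrays 1 to 5 and 9.35, 10.49, 6.98, 9.31 and 9.23 on CAF arrays 1 to 5. Normal arrays 3, 4 and 5 stood highest and CAF array 3 lowest, with normal array 2 next above it, so the groups overlapped. The mean was 10.02 ± 1.61 (SD, n = 5) for normal fibroblasts and 9.07 ± 1.28 (SD, n = 5) for CAF, a difference of -0.95 on the log2 scale, or 1.93-fold higher in normal samples. The span over the 10 arrays was 4.31 on the log2 scale, or 19.8-fold, and within a group it was 3.45 among normal and 3.52 among CAF arrays.

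**Figure D1:**
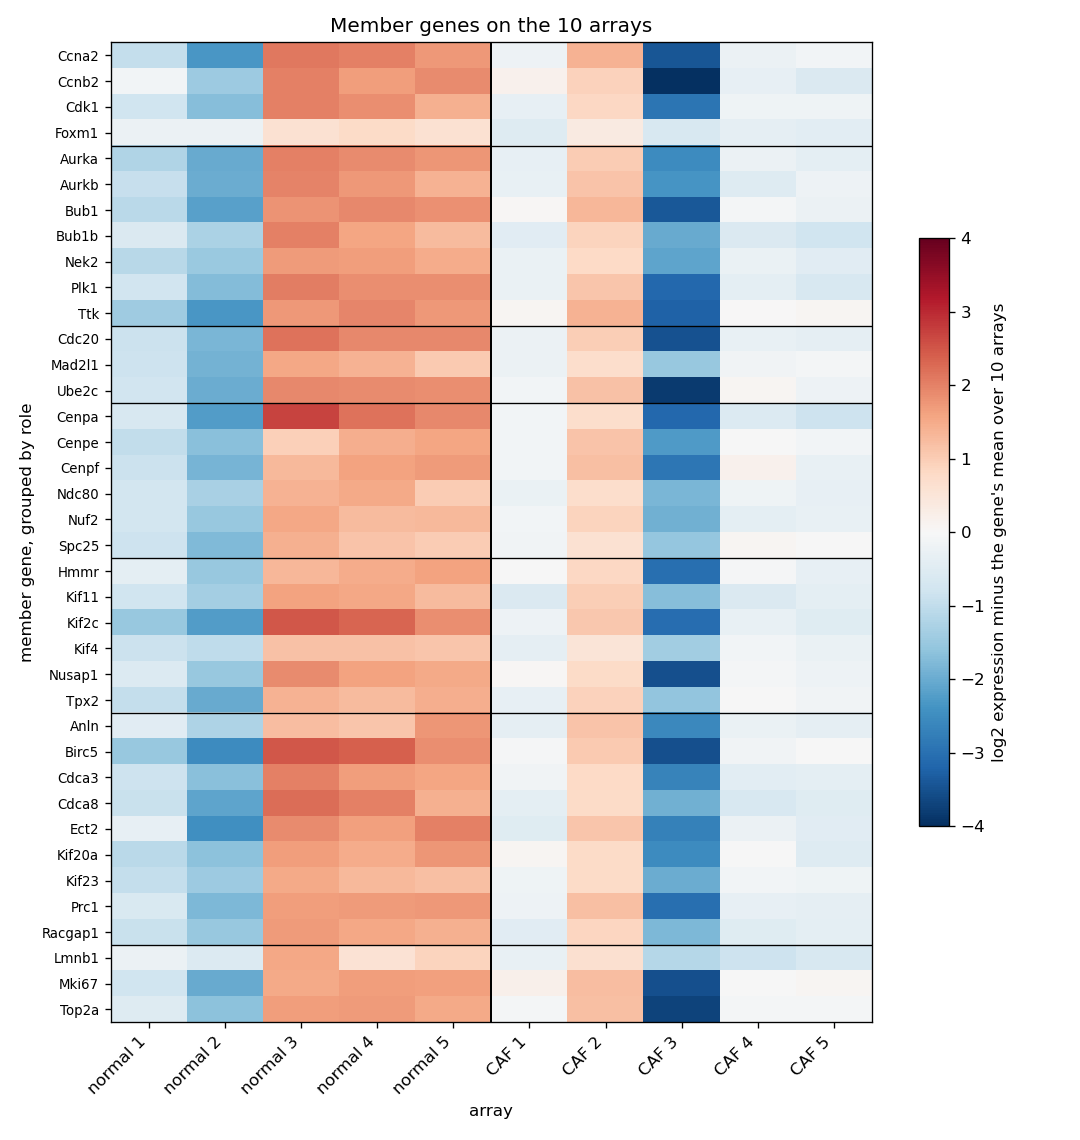
Log2 expression of each of the 38 member genes (rows, grouped by role, with horizontal lines between groups) on the 10 arrays (columns), minus the gene's own mean over the arrays. Red is above and blue below the gene's mean. Normal arrays 3 to 5 are red and CAF array 3 and normal array 2 are blue in nearly every row, on both sides of the vertical line that divides normal from CAF arrays.

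The order of the arrays was almost the same in every gene. Normal arrays 3, 4 and 5 were the 3 highest in 35 of 38 genes, with CAF array 2 next below them in the same number. In the other genes, Cenpe, Anln and Lmnb1, CAF array 2 read higher than 1 of those normal arrays. CAF array 3 was lowest in 34 genes and normal array 2 in 4, namely Mad2l1, Spc25, Tpx2 and Cdca8. These arrays were the lowest pair in 36 genes, Foxm1 and Lmnb1 being the exceptions. The highest value fell on normal array 3 in 24 genes, on normal array 4 in 6 and on normal array 5 in 8. The span of a gene over the arrays ran from 1.40 for Foxm1 to 6.24 for Ccnb2, with a median of 4.55, or 23.5-fold, whereas the median span of all 18193 genes was 0.69. The SD within groups, pooled over both, had a median of 1.53 for members and 0.19 for all genes, and it was above 1 in 35 of 38 members and in 633 genes, or 3.48%, of the table.

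The test between the groups called none of the members. In the limma fit over all 18193 genes, 137 genes, or 0.753%, had an adjusted p under 0.05, and 0 of the 38 members were among them. The members' adjusted p values ran from 0.197 to 0.752, and their standard errors from 0.26 to 1.19 on the log2 scale. At an unadjusted p under 0.05 there was 1 member, Foxm1, whereas 4054 genes, or 22.3%, passed that level. The 5 values of one group lay wholly outside those of the other in 0 of 38 members and in 7.16% of all genes. All 38 fitted differences had the same sign, lower in CAF, and ran from -1.62 for Ccnb2 to -0.39 for Spc25, with a median of -0.95. Among all genes 57.2% were lower in CAF and the median difference was -0.04. Because the members move together over the same 10 arrays, the 38 signs are not 38 separate observations.

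The size of the difference depended on which normal arrays were compared. Against the 2 normal arrays that share the ls prefix with the CAF arrays, all 38 members were lower in CAF, by -2.83 to -1.0 with a median of -2.06. Against the 3 normal arrays with the vs prefix, 30 members were lower and 8 higher, with differences from -0.97 to 0.34 and a median of -0.19. Normal arrays 1 to 3 carry the same prefix, and their member means ranged from 7.84 to 11.28. Single arrays also moved the median difference. It was -0.43 without CAF array 3, -0.61 without normal array 3 and -1.51 without normal array 2, and -0.95 with all arrays.

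**Figure D2:**
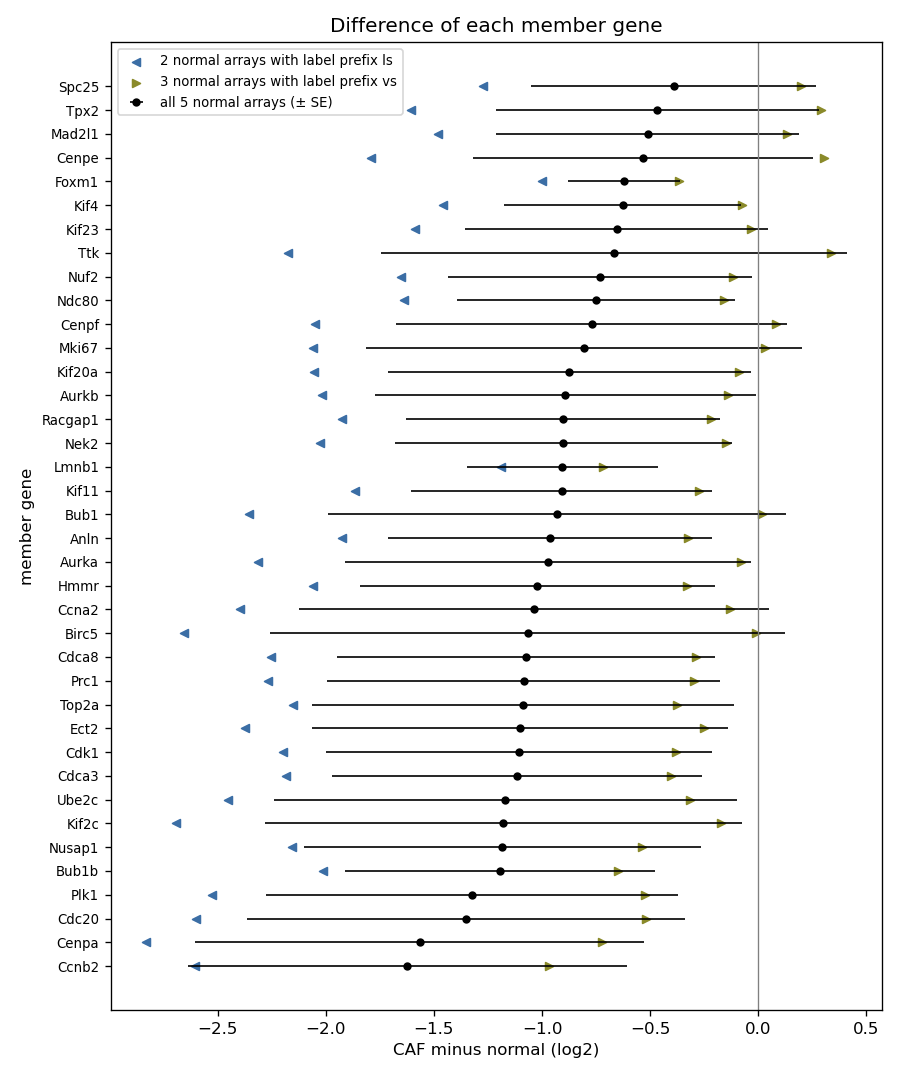
Difference in log2 expression, CAF minus normal, of the 38 member genes, ordered by size. Black points with bars are limma's estimates ± SE against all 5 normal arrays and lie from -1.62 to -0.39. Triangles pointing left compare CAF with the 2 ls normal arrays only and lie at or below -1.0, and triangles pointing right compare with the 3 vs normal arrays only and lie on both sides of 0.

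The 4 measured regulators and cyclins differed by -1.62 to -0.62. Ccnb2, which encodes cyclin B2, a partner of CDK1, had the largest difference of all members. It read 9.83, 8.50, 11.97, 11.63 and 11.84 on normal arrays 1 to 5 and 10.11, 10.85, 5.72, 9.62 and 9.36 on CAF arrays 1 to 5. The normal arrays spanned the level of 4 CAF arrays and only CAF array 3 fell below all of them. The difference was -1.62 ± 1.02 (SE) with an adjusted p of 0.367 in limma. Ccna2, the cyclin A2 gene, read 9.39, 8.01, 12.43, 12.34 and 12.08 on normal and 10.12, 11.71, 6.92, 10.09 and 10.22 on CAF arrays. Its groups overlapped in the same manner, with a difference of -1.04 ± 1.09 (SE) and an adjusted p of 0.597. Cdk1, the kinase that drives entry into mitosis, differed by -1.11 ± 0.89 (SE), with values from 9.49 to 13.21 in normal and from 8.28 to 12.02 in CAF samples.

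Foxm1, the forkhead factor that activates many of the other members, varied least. Its values were 8.33, 8.34, 9.18, 9.34 and 9.17 on normal and 8.06, 8.92, 7.93, 8.20 and 8.15 on CAF arrays. All CAF arrays except CAF array 2 lay below every normal array, and CAF array 2 lay between normal array 2 and normal array 5. The difference of -0.62 ± 0.26 (SE) came with the smallest p of the members, 0.0379 before and 0.197 after adjustment over all genes in limma. Foxm1 also had the smallest SD within groups, 0.44 pooled, and the lowest correlation with the other members, 0.869. These values are those of the chosen probe set. Its other probe sets had r at 0.978, 0.946 and, for a dim one of mean 4.46, 0.108. The one with r at 0.978 had a mean of 8.56 and spanned 2.48. With the probe set of largest variance, Foxm1 differed by -0.59 with an adjusted p of 0.546 in limma.

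**Figure D3:**
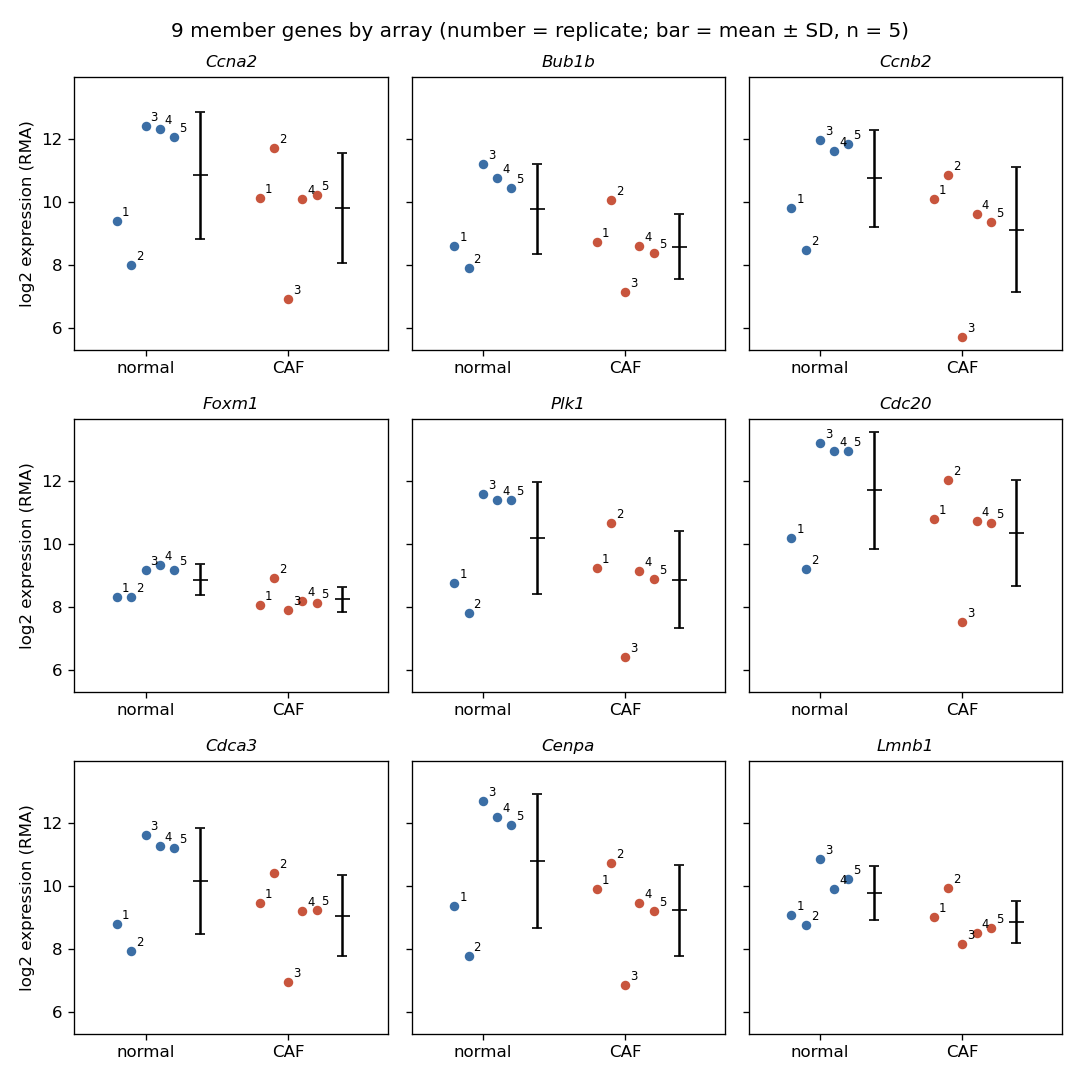
Log2 expression (RMA) of 9 member genes by array, in blue for normal and red for CAF samples, each point marked with its replicate number. Bars give the mean ± SD of 5 arrays. In each panel normal arrays 3 to 5 lie well above normal arrays 1 and 2, and CAF array 3 is the lowest CAF array. Foxm1 and Lmnb1 span the least.

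The 7 genes grouped as mitotic kinases differed by -1.32 to -0.67, with adjusted p values from 0.348 to 0.742 in limma. Plk1, which acts at centrosomes, kinetochores and the midbody, read 8.78, 7.81, 11.60, 11.41 and 11.40 on normal and 9.26, 10.66, 6.41, 9.15 and 8.90 on CAF arrays, a difference of -1.32 ± 0.95 (SE). Bub1b, whose product BubR1 belongs to the mitotic checkpoint complex, read 8.60, 7.93, 11.20, 10.76 and 10.45 on normal and 8.74, 10.07, 7.16, 8.60 and 8.39 on CAF arrays. Bub1b had the third smallest p of the members, 0.128 before and 0.348 after adjustment, with a difference of -1.20 ± 0.72 (SE). In both genes the CAF arrays other than CAF array 3 lay between normal array 2 and normal array 5. The Aurora kinase genes Aurka and Aurkb, which act on spindle poles and centromeres, differed by -0.97 ± 0.94 (SE) and -0.89 ± 0.88 (SE). Ttk, the gene of the checkpoint kinase MPS1, differed by -0.67 ± 1.08 (SE) and turned to 0.05 when CAF array 3 was left out. Bub1, a kinase of the checkpoint, and Nek2, a kinase of the centrosome, differed by -0.93 ± 1.06 (SE) and -0.90 ± 0.78 (SE).

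Of the checkpoint and anaphase-promoting complex genes, Cdc20, the activator of the complex in mitosis, read 10.19, 9.22, 13.22, 12.97 and 12.95 on normal and 10.81, 12.03, 7.54, 10.74 and 10.67 on CAF arrays. Its difference was -1.35 ± 1.01 (SE) with an adjusted p of 0.454 in limma, and 4 of the 5 CAF arrays lay between normal array 1 and normal array 5. Ube2c, the ubiquitin-conjugating enzyme that works with the complex, spanned 7.51 to 13.26 and differed by -1.17 ± 1.07 (SE). Mad2l1, the MAD2 protein that holds the complex back until chromosomes are attached, differed less, by -0.51 ± 0.70 (SE), and read lowest on normal array 2.

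The 6 kinetochore and centromere genes differed by -1.57 to -0.39. Cenpa, the histone H3 variant that marks centromeres, read 9.38, 7.79, 12.71, 12.20 and 11.94 on normal and 9.92, 10.73, 6.88, 9.46 and 9.20 on CAF arrays. It had the second largest difference of the members, -1.57 ± 1.04 (SE), with an adjusted p of 0.394. Its 3 highest normal arrays lay above every CAF array, and its other normal arrays lay among them. The genes of the NDC80 complex, which ties kinetochores to microtubules, differed less, with -0.75 ± 0.64 (SE) for Ndc80, -0.73 ± 0.70 (SE) for Nuf2 and -0.39 ± 0.66 (SE) for Spc25. Cenpe, a kinetochore motor, and Cenpf, a kinetochore and nuclear matrix protein, differed by -0.53 ± 0.79 (SE) and -0.77 ± 0.90 (SE), and both turned positive against the vs normal arrays, at 0.30 and 0.08.

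The 6 spindle motor and microtubule genes differed by -1.18 to -0.47, with adjusted p values from 0.462 to 0.740. Kif11, the motor that pushes spindle poles apart, differed by -0.91 ± 0.70 (SE), and Kif2c, which depolymerises microtubules at centromeres, by -1.18 ± 1.10 (SE). Nusap1, a spindle-associated protein, read 5.55 on CAF array 3, while the other 4 CAF arrays lay between 8.87 and 9.82. Tpx2, the activator of Aurora A on the spindle, differed by -0.47 ± 0.75 (SE). Kif4, a chromosome-bound motor, and Hmmr, a spindle assembly factor, differed by -0.63 ± 0.55 (SE) and -1.02 ± 0.82 (SE).

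The 9 genes grouped under chromosomal passenger and cytokinesis differed by -1.11 to -0.66. Cdca3 was placed in this group, although its product triggers mitotic entry. Cdca3 read 8.80, 7.95, 11.63, 11.29 and 11.20 on normal and 9.48, 10.43, 6.95, 9.21 and 9.24 on CAF arrays. With 0.997 it had the highest correlation with the other members, and its arrays stand in the order of the member means, except that CAF arrays 4 and 5 change places. Its difference was -1.11 ± 0.86 (SE) with an adjusted p of 0.464 in limma. Birc5, whose product survivin is a subunit of the chromosomal passenger complex, had the largest SD within groups of all members, 2.08 pooled, and its difference of -1.07 ± 1.19 (SE) shrank to -0.01 against the vs normal arrays. Cdca8, the borealin subunit of the same complex, differed by -1.07 ± 0.87 (SE). Genes for the central spindle and the cleavage furrow gave -1.08 ± 0.91 (SE) for Prc1, -0.66 ± 0.70 (SE) for Kif23, -0.88 ± 0.84 (SE) for Kif20a, -0.90 ± 0.73 (SE) for Racgap1, -1.10 ± 0.96 (SE) for Ect2 and -0.96 ± 0.75 (SE) for Anln. None of these differences exceeded the spread between arrays.

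Of the chromosome and nuclear structure genes, Top2a, the topoisomerase that untangles sister chromatids, and Mki67, the gene of the proliferation antigen Ki-67, spanned 6.83 to 12.23 and 6.42 to 11.62. Their differences were -1.09 ± 0.98 (SE) and -0.81 ± 1.01 (SE). Lmnb1, which encodes lamin B1 of the nuclear lamina, spanned less, with 9.10, 8.78, 10.88, 9.91 and 10.22 on normal and 9.03, 9.95, 8.18, 8.51 and 8.68 on CAF arrays. Here 4 of 5 normal arrays lay above 4 of 5 CAF arrays, and CAF array 2 lay among the normal ones. Lmnb1 had the second smallest p, 0.0677 before and 0.258 after adjustment in limma, and a difference of -0.91 ± 0.44 (SE). Its other probe set spanned more, 3.63, and had r at 0.944 with the other members. With the probe set of largest variance the adjusted p of Lmnb1 was 0.461 in limma.

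Covariation between the member genes was close. Over 10 arrays that share one normalisation, the 703 pairs of members had a median Pearson r of 0.972, with a range from 0.777 to 0.998, and 637 pairs lay above 0.9. Each gene was also set against the mean of the other members. That r ran from 0.869 for Foxm1 and 0.882 for Lmnb1 to 0.997 for Cdca3, with 0.996 for Ccna2 and Plk1, 0.953 for Ccnb2 and a median of 0.985. The other 36 members lay above 0.9, where 2.04% of all 18193 genes lie when set against the members' mean, and the median r of all genes was -0.02. Spearman's rho had a median of 0.964. A single component held 97.0% of the members' variance. With each group's mean subtracted the median r over pairs was 0.976, and without CAF array 3 and normal array 3, the arrays farthest from the median, it was 0.977. The covariation was thus present within the groups and without CAF array 3 and normal array 3. A wide span remained without them, since normal arrays 2, 4 and 5 stayed in, with member means of 7.84, 11.17 and 11.07. In that setting 4.22% of all genes had r above 0.9 with the members' mean.

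**Figure D4:**
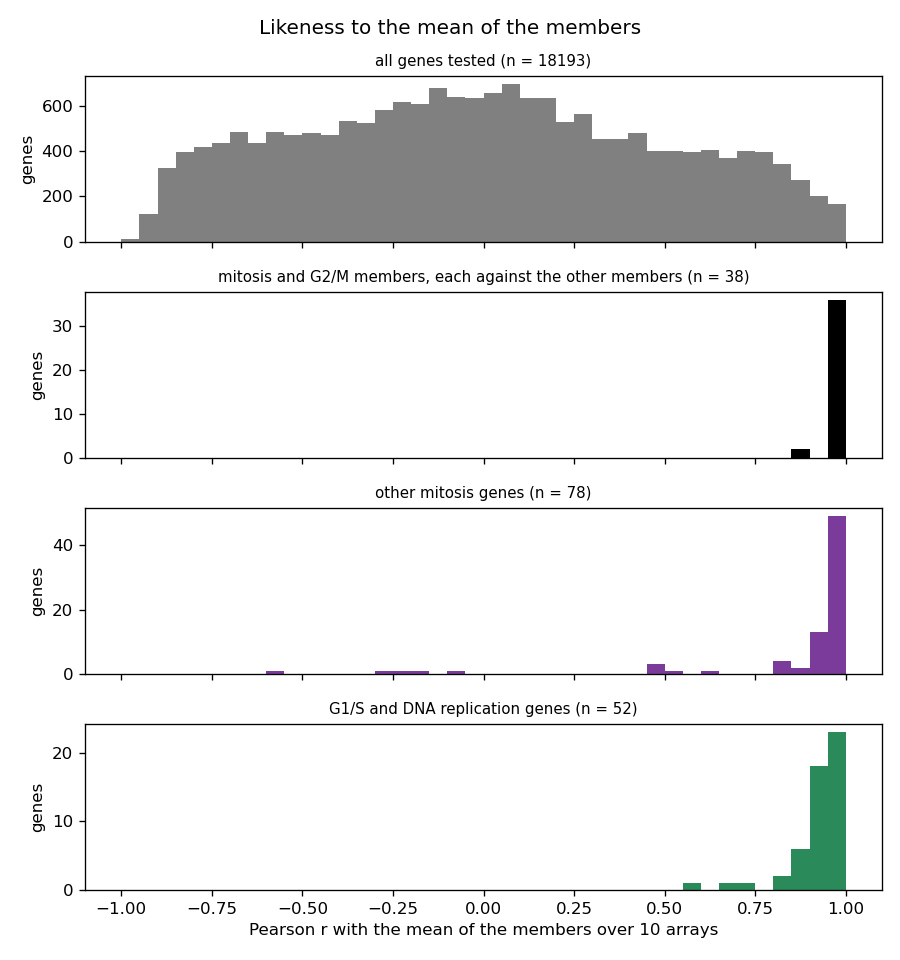
Histograms of Pearson r over 10 arrays with the mean of the member genes, for all 18193 genes, for the 38 members (each against the mean of the others), for 78 other mitosis genes and for 52 G1/S and DNA replication genes. All genes centre near 0, with a median of -0.02, while 36 members lie above 0.9, as do 62 and 41 genes of the lower panels.

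Of the 336 other genes with r above 0.9, 62 were among the 78 measured genes of a list of other mitosis genes, 41 among 52 G1/S and DNA replication genes and 222 in none of the lists. The most alike were Ncapd2, a condensin subunit, at 0.997, Ckap2l, a spindle protein, at 0.996, Kntc1, a subunit of a kinetochore complex, at 0.996, Tk1, thymidine kinase of the S phase, at 0.995, and Dlgap5, a spindle assembly factor, at 0.994. Tk1 read 8.96, 7.75, 12.27, 12.27 and 11.63 on normal and 9.89, 11.08, 6.76, 9.53 and 9.87 on CAF arrays, so that it crosses the same wide span. At the opposite end, 134 genes had r below -0.9. The lowest were Pomgnt2, a glycosyltransferase, at -0.980, Tex264, a receptor for the autophagy of endoplasmic reticulum, at -0.978, Yipf3 at -0.969, Ankle2, a protein of nuclear envelope assembly, at -0.968, and Cyhr1 at -0.964. These genes moved little. Pomgnt2 ran from 8.63 to 9.55 and Tex264 from 10.66 to 11.68 over all arrays.

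Among the 78 other mitosis genes the limma fit called 1 higher and 0 lower in CAF, with a median difference of -0.59 and a median r of 0.963 with the members' mean. The called gene was Zwint, a kinetochore scaffold gene, at 0.42 ± 0.07 (SE) with an adjusted p of 0.0483. Zwint read 12.54, 12.69, 12.69, 12.90 and 12.74 on normal and 13.05, 13.10, 13.15, 13.11 and 13.24 on CAF arrays, without overlap, and its r with the members was -0.192. Of its 7 probe sets 5 were higher and 2 lower in CAF. The chosen probe set spanned 0.71 over the arrays. The others had r from -0.273 to 0.388 with the members' mean, and the one at 0.388 spanned 2.55. The call of Zwint held under 5 of 21 alternatives, with adjusted p values in limma from 0.0263 to 0.445 and differences from 0.31 to 0.60. It was lost with the label prefix as a term, with the replicate block and without any single array other than normal array 4. Psrc1, a spindle protein, had a difference of 0.19 ± 0.13 (SE) with an adjusted p of 0.424, and the smallest p among genes of this list lower in CAF were those of Cit, the cytokinesis kinase citron, at -0.35 ± 0.09 (SE), and Pkmyt1, an inhibitory kinase of CDK1, at -0.27 ± 0.07 (SE), with adjusted p values of 0.0848 and 0.0915. The r of Cit was -0.085 and that of Pkmyt1 0.451.

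The 52 G1/S and DNA replication genes gave 0 calls in either direction in limma, a median difference of -0.43 and a median r of 0.939. Cdc25a, a phosphatase that activates CDK2, and Prim2, a primase subunit, were the genes with the smallest p among those higher in CAF, at 0.25 ± 0.33 (SE) and 0.25 ± 0.50 (SE). Fen1, a flap nuclease, and Ung, a uracil glycosylase, had the smallest p among those lower, at -0.44 ± 0.26 (SE) and -0.92 ± 0.64 (SE), with adjusted p values of 0.342 and 0.420. The list's mean ran from 8.0 to 10.99 on normal and from 8.16 to 10.29 on CAF arrays. Its lowest array was normal array 2, whereas that of the members was CAF array 3. CAF array 3 read lower than normal array 2 in 34 of 38 members, by a median of -0.83, and in 20 of 52 G1/S genes, where the median difference between these arrays was 0.13. The other mitosis genes lay between these lists, with 55 of 78 lower on CAF array 3 and a median of -0.26. Over all genes 52.7% read lower on CAF array 3. Cell type markers differed between these arrays as well, with 12 of 12 fibroblast markers lower on CAF array 3 (median -1.03), 15 of 16 macrophage markers higher (median 1.07) and 4 of 5 mesothelial markers higher (median 3.16), and their part in the members' difference was not tested. This pair of arrays was picked after its values were seen, and single arrays allow no test.

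Genes that regulate the members followed them in part. Of 23 such regulators limma called 0, and their median difference was -0.13. Those with r above 0.9 were Rbl1, the p107 pocket protein, at 0.973, the repressor E2F genes E2f8 at 0.958 and E2f7 at 0.941, Mybl2, the gene of B-Myb, at 0.945, Tfdp1, an E2F partner, at 0.934, and Lin9, a MuvB subunit, at 0.905. The other pocket protein genes ran the opposite way, with -0.882 for Rb1, the retinoblastoma gene, and -0.851 for Rbl2, the p130 gene of the DREAM complex. Among regulators higher in CAF, E2f3, an activating E2F gene, and Rb1 had the smallest p, at 0.46 ± 0.10 (SE) and 0.36 ± 0.23 (SE), with adjusted p values of 0.0609 and 0.371. E2f5 and E2f4, repressor E2F genes, had the smallest p among those lower, at -0.58 ± 0.16 (SE) and -0.24 ± 0.08 (SE), with adjusted p values of 0.0902 and 0.122.

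Among 17 genes of the anaphase-promoting complex and its regulators, limma called 0, and the median difference was -0.11. Ube2s, its chain-elongating enzyme, at 0.979 and Fbxo5, its inhibitor EMI1, at 0.963 were the genes with r above 0.9, and the remaining genes, mostly core subunits, had r from -0.618 for Anapc2 to 0.841 for Cdc23. Anapc11, the RING subunit, differed by -0.61 ± 0.17 (SE) with an adjusted p of 0.0926, Cdc23 by -0.54 ± 0.20 (SE), Anapc4 by 0.13 ± 0.09 (SE) and Cdc27 by 0.11 ± 0.10 (SE). The list's mean moved between 10.88 and 11.69 over all arrays, a narrower span than that of the members.

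The CDK inhibitors held 1 call among 8 genes, lower in CAF. Cdkn1b, the p27 gene, read 10.69, 10.72, 10.14, 10.15 and 9.98 on normal and 9.16, 9.75, 8.53, 8.89 and 8.77 on CAF arrays. The groups did not overlap, and the difference was -1.32 ± 0.24 (SE) with an adjusted p of 0.0484 in limma. Its r with the members was 0.289, and a dimmer second probe set differed by -0.32. The call of Cdkn1b held under 6 of 21 alternatives, with adjusted p values in limma from 0.0218 to 0.306 and differences from -1.50 to -0.82. It was lost with the label prefix as a term, with the replicate block and without any single array other than CAF array 2. Cdkn1a, the p21 gene, mirrored the members. It read 13.14, 13.63, 11.77, 12.30 and 12.53 on normal and 13.35, 12.89, 13.80, 13.24 and 13.49 on CAF arrays, lowest on normal array 3 and highest on CAF array 3, with r at -0.901 and rho at -0.915. Its difference between the groups was 0.68 ± 0.33 (SE) with an adjusted p of 0.249. A second probe set of Cdkn1a had r at -0.871. Cdkn2a, the gene of p16 and ARF, differed by 0.43 ± 0.47 (SE) with r at -0.685, and Cdkn2c, the p18 gene, by -0.74 ± 0.28 (SE) with an adjusted p of 0.170. Cdkn3, a phosphatase of CDKs that is grouped with the inhibitors by name, and Cdkn2d, the p19 gene, had r at 0.939 and 0.928.

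The 6 G1 cyclins and kinases gave 0 calls in limma and a median difference of -0.06. Cdk2, the kinase of cyclins E and A, followed the members with r at 0.928, and Cdk4, a partner of the D cyclins, with 0.855. Ccnd2, a D cyclin, had r at -0.705. Its difference was 0.63 ± 0.31 (SE) with an adjusted p of 0.255, and Cdk4 differed by -0.47 ± 0.24 (SE), Ccnd3 by -0.13 ± 0.13 (SE) and Cdk6 by 0.08 ± 0.20 (SE).

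**Figure D5:**
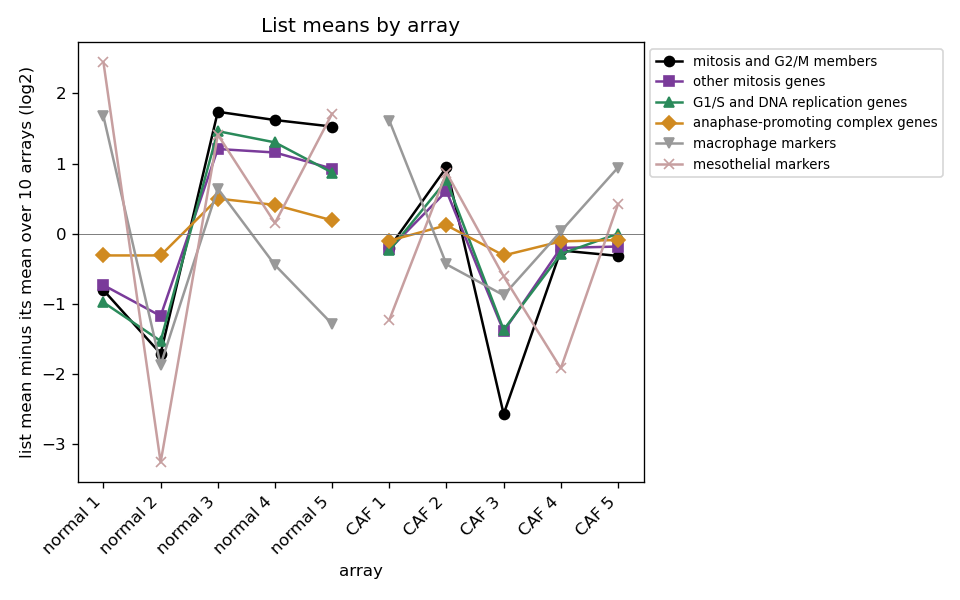
Mean log2 expression of 6 gene lists on each array, minus the list's own mean over the 10 arrays. Lines join the arrays of a group only to guide the eye, since replicates have no order. The members, other mitosis genes and G1/S genes share their peaks on normal arrays 3 to 5 and CAF array 2, the anaphase-promoting complex list moves less, and macrophage and mesothelial markers take other courses.

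Markers of fibroblasts had a high mean on all arrays, but not every marker was high on each. Their 12-gene mean ran from 12.48 to 14.20 on normal and from 12.33 to 13.68 on CAF arrays, and limma called 0 of them. Lum, the lumican gene, varied most widely in level. It read 10.30, 14.49, 9.10, 9.11 and 8.18 on normal and 14.12, 7.06, 8.28, 10.33 and 7.09 on CAF arrays. Col6a1 and Col3a1, collagen genes, had the smallest p among those lower in CAF, at -0.91 ± 0.36 (SE) and -0.63 ± 0.32 (SE), and Dcn, the decorin gene, and Pdgfrb, a PDGF receptor gene, among those higher, at 0.72 ± 0.44 (SE) and 0.43 ± 0.51 (SE). Dcn had r at -0.808 with the members. Macrophage markers were present as well. The mean of 16 of them ran from 9.73 to 13.27 on normal and from 10.72 to 13.21 on CAF arrays, all 16 were higher in CAF by sign, 0 were called, and the largest differences by p were those of Laptm5 at 1.12 ± 0.80 (SE) and Cd68 at 0.85 ± 0.72 (SE). Their mean had r at 0.094 and rho at 0.067 with the members' mean. Mesothelial markers, 5 genes, ran from 5.87 to 11.57 on normal and from 7.21 to 10.00 on CAF arrays, with r at 0.512. Lrrn4 and Upk3b of that list differed by -2.99 ± 1.15 (SE) and -1.07 ± 1.51 (SE), with adjusted p values of 0.170 and 0.702.

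The endothelial list (9 genes, 6.16 to 6.70), the epithelial list (9 genes, 6.39 to 7.75) and the lymphocyte list (6 measured genes, 5.92 to 6.16) had low means on all arrays, and these means had r at 0.711, 0.604 and 0.068 with the members. Their defining genes did not all read alike. In normal and CAF samples the group means were 5.90 and 6.17 for Pecam1 but 8.39 and 7.78 for Kdr of endothelium, 4.87 and 5.04 for Cdh1 but 8.23 and 7.81 for Epcam of epithelium, and 5.00 and 5.01 for Cd3g but 7.70 and 7.39 for Cd3e of T cells. RMA gives no detection call, so which of these levels lie at background is not known. Krt18 and Krt8, keratin genes of simple epithelia, and Esam, an endothelial adhesion gene, had means between 8.15 and 9.43 in the groups and r at 0.622, 0.638 and 0.685. Among endothelial genes lower in CAF the smallest p were those of Cldn5 at -0.27 ± 0.08 (SE) and Emcn at -0.26 ± 0.09 (SE), and the largest difference was that of Kdr at -0.61 ± 0.25 (SE). Among those higher they were those of Vwf at 0.27 ± 0.11 (SE) and Pecam1 at 0.26 ± 0.21 (SE). Epcam at -0.42 ± 0.09 (SE) and Nkx2-1 at -0.20 ± 0.06 (SE) had the smallest p among epithelial genes lower in CAF, and Cdh1 at 0.17 ± 0.23 (SE) was the single one higher. Of the lymphocyte genes, Cd3e at -0.31 ± 0.09 (SE) and Ms4a1 at -0.16 ± 0.06 (SE) had the smallest p among those lower, and Cd3g at 0.01 ± 0.06 (SE) was the single one higher. The mean of the smooth muscle and pericyte markers ran from 9.92 to 10.96, with r at 0.046. Of these, Myh11, smooth muscle myosin, differed by 1.12 ± 0.41 (SE) with an adjusted p of 0.152, Rgs5 by 0.90 ± 0.65 (SE), Mcam by -0.66 ± 0.54 (SE) and Notch3 by -0.25 ± 0.29 (SE). Limma called 0 genes in each of these lists. No gene of any cell type marker list had r above 0.9 with the members. What part the other cell types have in the members' levels was not tested.

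Other probe sets gave further readings of the members, and by the rule of choice none had a higher mean than the chosen one. There were 47 of them for 26 members, and 12 members had a single probe set. In 23 of the 47, r with the chosen probe set was above 0.9, and the median was 0.897. In 12 it was under 0.5, with a lowest value of -0.52 for a Cdca3 probe set, and all of these had means of 6.91 or less. Probe sets with r above 0.9 had means as low as 6.11, so a low mean alone did not mark the ones that disagreed. In sign, 46 of the 47 were lower in CAF and the other was at 0.00, while 57.2% of all genes were lower. The 12 with r under 0.5 were all lower too, the Cdca3 one at -0.52 by -0.08. All these probe sets read the same RNA on the same arrays, so the count is no separate test of the direction. The chosen probe sets of Cdc20, Kif2c and Aurkb have identifiers ending in _x_at, which marks probes that may also bind other transcripts, so their levels are less certain.

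Over all probe sets the arrays were close in scale, but the groups did not overlap. Medians ran from 6.73 to 6.79, each CAF array below each normal array. CAF arrays spread more, with an SD from 2.41 to 2.44, against 2.33 to 2.39 for normal arrays. Their upper quartiles were higher too, 9.21 to 9.29 against 9.05 to 9.12. With arrays centred on their median, the members' median difference was -0.91, and with quantile normalisation -1.02. In these settings limma called 0 members, and 285 and 92 of all genes. Deposited values ran from 3.98 to 15.5. Over the 18193 genes, each read by its chosen probe set, the correlation between arrays ran from 0.926 to 0.991. RMA values carry no detection call, and the number of arrays, 5 in each group, limits the precision of every difference given here.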

How the data were processed

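Expression was measured with Affymetrix Mouse430_2 arrays from total RNA, 6 ug for each sample, in 5 normal and 5 CAF samples. The authors deposited 1 table of log2 values, made with RMA in Affymetrix Expression Console, per the submitters' processing notes, in which limma is also named. RMA normalises arrays jointly by quantiles and compresses differences between dim probe sets. Scanner files were not used here.

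Of 45101 probe sets, 64 controls were left out. The platform table gave 1 gene symbol to 34945, several to 932 and none to 9160, and 34741 of the single-symbol probe sets were matched by Entrez identifier to RefSeq (GRCm38.p6), whose symbol was then used. The single-symbol probe set with the highest mean stood for each of 18193 genes. R 4.3.3 and its package limma 3.58.1 were used to fit the difference between the groups, with group as the single term and moderated variances (eBayes), Benjamini-Hochberg adjustment over all genes and a threshold of 0.05, and the fit was tested on simulated data. Correlations are descriptions over 10 arrays. Comparing replicate numbers between groups, the correlations of deviations from the group means were 0.34, -0.53, -0.48, -0.06 and -0.09. They gave no basis for pairing the arrays but cannot exclude it, since any other difference between cultures enters them. Whether arrays of equal number belong together is not known, and the main fit did not pair them. P-values come from limma's moderated t-test, which sets each difference against the spread between samples within groups, with variances moderated over all genes.

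The members, lists and rules were chosen with earlier results of these data known. Values in every array are given for members called, for the 3 with the largest difference in each direction, the 3 with the smallest p and the 3 with the highest and the lowest r. At least 2 members of each role group are named. In other lists the called genes and the 2 with the smallest p in each direction are named, as are the 5 genes most alike and the 5 most opposite. Other genes of these lists, the check of Zwint and Cdkn1b under each alternative, the short promoter windows, the counts of array order and the thresholds of 0.9 for r and 1 for the SD were chosen after values were seen. Alternatives covered normalisation, probe set choice, a level filter, the variance prior, array weights, the replicate block, the label prefix and each array left out.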

Additional observations from a re-analysis of the deposited data

Results flagged for a closer look

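Of 78 groups of 5 values compared (the 38 member genes and their mean, in each group of arrays), 6 had a highest or lowest array set apart from the other 4 by more than 0.71 of the group's range, Dixon's 95% limit for 5 values. Chance sets apart about 1 group in 20, and the groups here are not independent, since the genes move together. CAF array 3 was the lowest array in 5 of these: Nusap1 at 5.55, Mki67 at 6.42, Birc5 at 6.79, Top2a at 6.83 and Ube2c at 7.51. In the remaining one, CAF array 2 was set apart as the highest CAF array for Foxm1, at 8.92. No normal array was set apart for any member.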

How the results depend on the processing

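Over 21 alternatives, 786 of 796 values for single members kept their direction and their side of the threshold, 9 turned positive and 1, Foxm1, was called. Against the vs normal arrays alone, 8 members were higher in CAF, with differences of 0.34 for Ttk, 0.30 for Cenpe, 0.29 for Tpx2, 0.20 for Spc25, 0.13 for Mad2l1, 0.082 for Cenpf, 0.031 for Mki67 and 0.016 for Bub1. Leaving out 1 array at a time, 0 to 1 members were higher and Ttk ran from -1.33 to 0.054, the latter without CAF array 3. With array weights 1 member was called, Foxm1 at -0.87 with an adjusted p of 0.0386 in limma. Over the alternatives the median difference of the members ran from -2.06 (ls normal arrays only, or the prefix as a term) to -0.19 (vs normal arrays only), and was -1.58 with array weights.

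The number of genes called in limma was less stable than the members' direction. From 137 it went to 285 with arrays centred on their median, 235 with the probe set of largest variance, 50 among genes above the median level (36 of the 38 members), 46 with a trended and robust prior and 1597 with array weights. It was 1 against the ls normal arrays and 0 with the label prefix as a term. With the replicate block it was 0, with a median difference of -0.95 and 0 members called. Leaving out 1 array at a time it ran from 0 to 166, and was 0 without normal array 3 or CAF array 1, 3 or 5. The median r between members ran from 0.969 to 0.977 over its alternatives. The cause of these changes was not tested.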
